A study of Mus musculus with 9 samples.

Results

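The microglia identity genes are a list of 40 genes that mark microglia, the resident macrophages of the brain, or serve their sensing and phagocytosis. All 40 were found by symbol among the 57180 genes of the deposited table, each in 1 row, and all 40 passed the filter on low counts. RNA was measured in the hippocampus of 9 male mice, 3 in each of 3 groups, taken at 6 weeks of age after behavioural tests. Con were C57BL/6J mice given vehicle, Model were BTBR T+ Itpr3tf/J (BTBR) mice given vehicle, and the group called MAN@SKI II were mice of that same strain treated with a brain-directed nanomicelle of that name. Per the labels it inhibits S1P (sphingosine-1-phosphate) and was injected into the tail vein at 40 mg/kg per day over 7 days, from 5 weeks of age. The vehicle is saline by one label field and PBS by another. Con and Model are different inbred strains, so that a difference between them belongs to the whole strain background and to no single allele. Libraries were made from whole tissue. A lower level of a microglial gene in such RNA cannot be told apart as fewer microglia or as less RNA in each cell. How far sequence differences between the strains alter read counts was not tested.

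Microglia keep their identity through a small set of transcription factors, among them PU.1 (encoded by Spi1) and SALL1, and survive on signalling through the receptor CSF1R. They sense nucleotides through P2RY12 and P2RY13 and the neuronal chemokine CX3CL1 through CX3CR1. TREM2 and several Fc receptors signal through the adaptors TYROBP and FCER1G, the kinase MERTK drives uptake of dying cells, and cathepsin S is one of the lysosomal proteases that degrade what was taken up.

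Total counts per library lay between 14751054 and 18827093, so that 3 counts, taken as the floor, equal 0.159 to 0.203 CPM (read counts scaled to a common, TMM-normalised library total), the unit of all levels below unless FPKM is named. Library MAN@SKI II 2 lay far out on the second principal component of all genes, at 49.9 against -16.4 to 4.17 for the others, and 9.63% of its counts came from genes of the mitochondrial genome, against 6.26% to 7.15% elsewhere. Neuronal markers, used to check the labelled tissue, were all present, 14 of 14 tested. Markers of neighbouring tissue and of myelin moved with the strain. The summed level of 15 choroid plexus genes was 983 to 2594 CPM in Con, 90.9 to 362 CPM in Model and 102 to 423 CPM in MAN@SKI II, and that of 15 oligodendrocyte genes 5349 to 6210, 3412 to 3787 and 2943 to 3335 CPM. The defining genes were Ttr, the transthyretin of the choroid plexus, at 823 to 2229 CPM in Con and 12.9 to 313 CPM in the BTBR libraries, and Mobp, a myelin protein, at 1165 ± 100.1 CPM in Con, and at 556 ± 17.5 CPM in Model (SD, n = 3 each).

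Per unit of length, on the deposited FPKM scale, Ctss was the most abundant of the 40 genes in Con at 26.6 ± 1.48 FPKM. It was followed by Csf1r at 10.9 ± 0.241 FPKM, Cx3cr1 at 9.46 ± 0.861 FPKM, Mertk at 8.34 ± 0.651 FPKM, Tmem119, a microglial membrane protein, at 7.88 ± 1.15 FPKM and Fcrls, an Fc receptor-like protein, at 7.60 ± 0.416 FPKM. Ctss stood above all others by far more than its spread, whereas Mertk, Tmem119 and Fcrls did not differ beyond theirs. The lowest were Runx1, a transcription factor, at 0.0514 ± 0.0116 FPKM, Ikzf1, another, at 0.133 ± 0.0350 FPKM, and Ptprc, the leukocyte phosphatase CD45, at 0.159 ± 0.0149 FPKM.

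Model against Con addresses how the model strain differs from the control strain. As a set, the 40 genes were somewhat lower in BTBR mice. Their mean log2 CPM was 3.14, 3.03 and 3.12 in Con 1 to 3, 2.82, 2.92 and 2.93 in Model 1 to 3, and 2.89, 2.91 and 2.92 in MAN@SKI II 1 to 3. Every BTBR library lay below every Con library, and the Model and MAN@SKI II libraries overlapped. The 40 genes summed to 575 ± 14.96 CPM in Con, 490 ± 10.96 CPM in Model and 498 ± 20.5 CPM in MAN@SKI II. In Model against Con 31 of the 40 genes had a negative log2 fold change, against 49.9% of the 17550 genes tested, and their median was -0.14 against 0.0003 for all genes. On the linear scale that median is a change of -9.09%. Lower sums were not particular to these genes. Those of 14 astrocyte genes were 4857 to 4919 CPM in Con and 4362 to 4552 CPM in Model (median log2 fold change -0.08). Those of 14 endothelial and mural genes were 564 to 581 and 509 to 533 CPM (median -0.03). Sums of 14 neuronal genes overlapped, at 11021 to 11639 and 11203 to 12239 CPM (median 0.08).

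**Figure D1:**
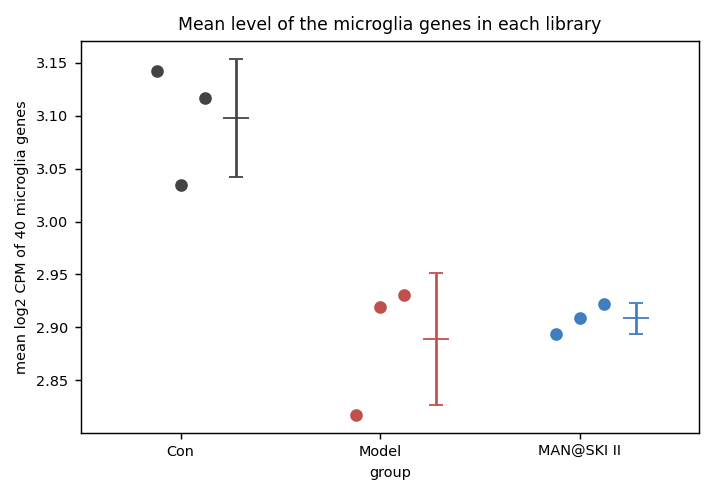
Mean log2 CPM of the 40 microglia genes (vertical axis, log2 scale that does not start at 0) in each library, by group (horizontal axis). Points are libraries and the bar beside them is the mean ± SD of 3 libraries. The Con libraries sit at 3.03 to 3.14 and the 6 BTBR libraries at 2.82 to 2.93.

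This shift was not even across the genes. By edgeR's quasi-likelihood test with Benjamini-Hochberg adjustment over all 17550 genes, 4 of the 40 fell in Model, Fcrls, Tyrobp, Mertk and Ctss, and 0 rose. Among all genes tested 7.64% were called, 4.52% lower and 3.11% higher, so the 4 that fell, 10% of the list, lie above that background and are still few. At an unadjusted p under 0.05 there were 10 of the 40 (25% against 19.6% of all genes). The groups did not overlap for 12 genes that were lower, 30% of the list against 16.2% of all genes, and for 1 gene that was higher, P2ry13, against 16% of all genes. The middle 50% of the 40 log2 fold changes spanned -0.40 to -0.02. Their SD was 0.31 where the median standard error of a single gene was 0.17. Over all genes tested the middle 50% spanned -0.16 to 0.13, the SD was 0.67 and the median standard error 0.14. An SD above the standard error was thus not particular to the list. Taking the median of -0.14 as the shift common to the genes, 9 of 40 lay more than 2 standard errors from it. The same share over all genes was not counted. Of the 9, Fcrls, Tyrobp, Trem2, Mertk, Olfml3 and Ctss lay below, and P2ry13, Cd68 and Unc93b1 above.

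**Figure D2:**
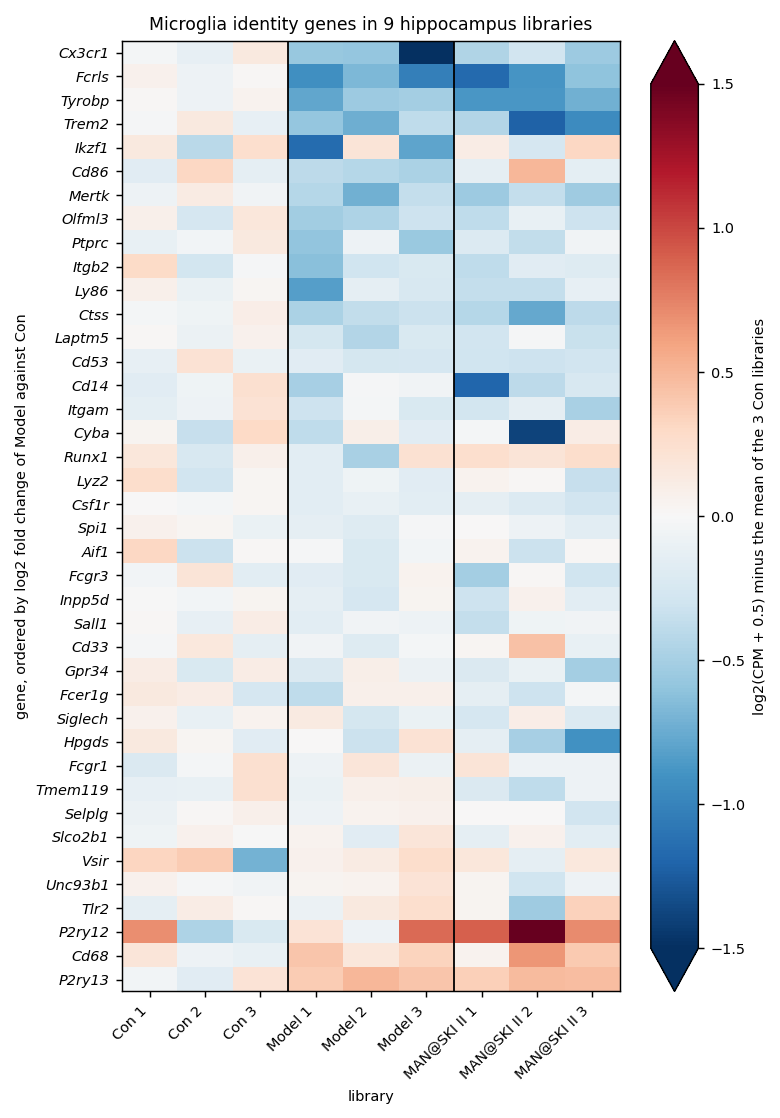
Level of each of the 40 microglia genes (rows, ordered by the log2 fold change of Model against Con) in each of 9 libraries (columns), as log2(CPM + 0.5) minus the mean of the 3 Con libraries. Blue is below and red above Con, and values beyond 1.5 take the end colours. Fcrls, Tyrobp, Trem2 and Mertk are blue in all 6 BTBR libraries, P2ry13 is red in them, and Cx3cr1 in Model 3 is the darkest blue cell of the Model columns.

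Of the 6 genes for TREM2, Fc receptors, an Fc receptor-like protein and adaptors, 2 fell in Model, Fcrls and Tyrobp. Fcrls, on chromosome 3 from 87158065 to 87171045 (GRCm39, as are the other positions of deposited genes), was at 21.1, 19.1 and 20.5 CPM in Con, at 10.4, 12.5 and 9.69 CPM in Model, and 8.74, 10.7 and 13.1 CPM in MAN@SKI II. All 6 BTBR libraries lay well below all 3 Con libraries. Its log2 fold change in Model was -0.90 ± 0.15 (SE, edgeR adjusted p = 0.00339). Tyrobp, the adaptor of TREM2 (chromosome 7, 30113185 to 30117010), was at 6.31, 5.89 and 6.50 CPM in Con, at 3.41, 4.11 and 4.23 CPM in Model, with 3.16, 3.18 and 3.57 CPM in MAN@SKI II. Again no BTBR library reached the lowest Con library, and the log2 fold change in Model was -0.67 ± 0.15 (edgeR adjusted p = 0.0191). The call was lost without Con 1 (0.0667), Con 3 (0.0756) or Model 1 (0.0823). Trem2, the lipid-sensing receptor that signals through it (chromosome 17, 48653429 to 48661175), was at 9.04, 10.2 and 8.36 CPM in Con, at 5.99, 5.33 and 6.91 CPM in Model, with 6.61, 3.67 and 4.53 CPM in MAN@SKI II. The groups did not overlap, but Trem2 was not called in Model (-0.60 ± 0.20, edgeR adjusted p = 0.105). It was called with the 6 compared libraries alone (adjusted p = 0.0232) and when MAN@SKI II 1 (0.0471) or MAN@SKI II 2 (0.0363) was left out.

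The remaining genes of that group were not called. Fcer1g, the gamma chain of Fc receptors, averaged 3.75 ± 0.623 CPM in Con libraries and 3.55 ± 0.688 CPM in Model. Fcgr3, a low-affinity IgG receptor, was at 7.92 ± 1.04 and 7.26 ± 0.812 CPM, and Fcgr1, the high-affinity IgG receptor, at 2.06 ± 0.410 and 2.06 ± 0.272 CPM. Their Con and Model libraries overlapped. Of the 6 genes, all 6 had negative log2 fold changes, against 77.5% of the 40 genes and 49.9% of all genes. Those of Fcgr1 (-0.0097 ± 0.23, SE) and Fcer1g (-0.07 ± 0.20) were well within their standard errors. Of the 6, 2 fell (4.52% of all genes).

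Mertk, the kinase for uptake of dying cells (chromosome 2, 128540876 to 128644814), was at 48.0, 55.3 and 48.7 CPM in Con, at 37.4, 30.4 and 39.5 CPM in Model, with 34.5, 39.3 and 34.8 CPM in MAN@SKI II. Its BTBR libraries all lay below its Con libraries (log2 fold change in Model -0.50 ± 0.11, edgeR adjusted p = 0.0155). The call was lost when Con 2 (0.0734) or Model 2 (0.0504) was left out. Mertk is also made by astrocytes, and of 14 astrocyte genes 3 fell in Model, including Gfap (347 ± 17.3 CPM in Con, 231 ± 21.7 CPM in Model) and Aldoc (664 ± 34.3 and 510.4 ± 38.1 CPM), which encode a filament protein and an aldolase. The part of astrocytes in the Mertk value was not tested. Csf1r, the other receptor kinase of the list, was at 84.2, 82.1 and 86.0 CPM in Con and at 75.2, 77.8 and 75.3 CPM in Model, with 76.3, 73.0 and 68.9 CPM in MAN@SKI II. The groups did not overlap, yet the difference was small and was not called (-0.14 ± 0.06, edgeR adjusted p = 0.233). With libraries scaled to the 40 genes its log2 fold change was 0.050, of the opposite sign (edgeR adjusted p = 0.660).

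Among lysosomal and degradation genes Ctss, which encodes cathepsin S (chromosome 3, 95434097 to 95463714), was at 46.6, 45.3 and 50.8 CPM in Con, at 34.1, 36.5 and 38.0 CPM in Model, with 35.1, 27.7 and 35.9 CPM in MAN@SKI II. No BTBR library reached Con (log2 fold change in Model -0.39 ± 0.10, edgeR adjusted p = 0.0434). This call is close to the threshold and was lost without each of the 6 Con and Model libraries in turn (adjusted p = 0.0838 to 0.162) and without MAN@SKI II 1 (0.0540). Laptm5, a lysosomal membrane protein of blood cells, averaged 24.8 ± 1.35 CPM in Con libraries and 19.98 ± 1.57 CPM in Model. Cd68, another lysosomal membrane protein, took the opposite direction, with 5.33, 4.36 and 4.26 CPM in Con and 6.35, 5.27 and 5.96 CPM in Model. Its groups overlapped and it was not called (0.34 ± 0.19, edgeR adjusted p = 0.372). Lyz2, which encodes lysozyme, was at 5.13 ± 1.06 and 4.58 ± 0.194 CPM, and Cyba, a subunit of the NADPH oxidase, at 3.65 ± 0.910 and 3.19 ± 0.598 CPM.

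**Figure D3:**
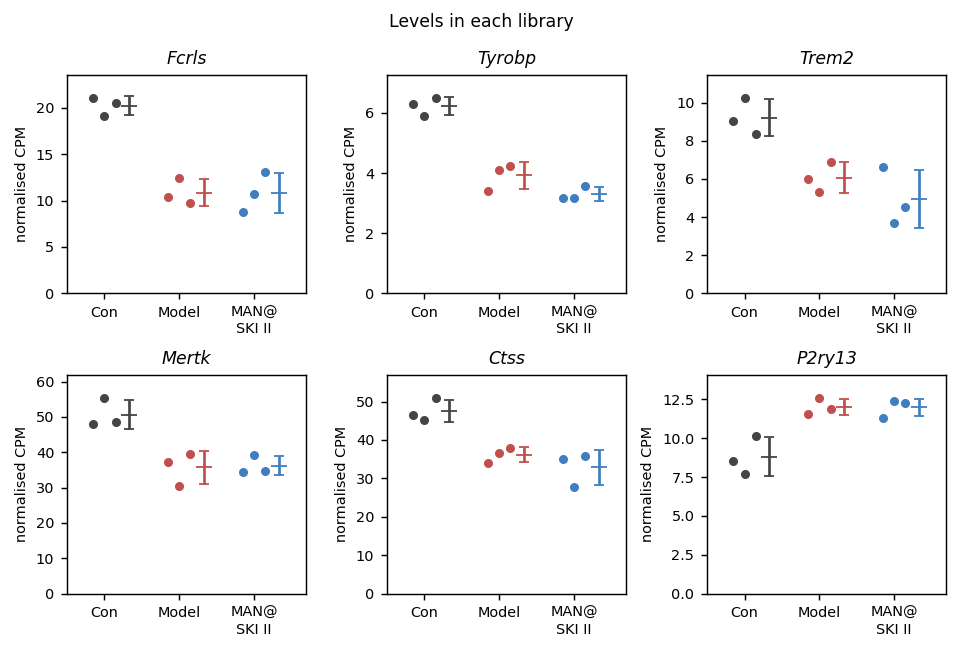
Normalised CPM (vertical axes, from 0) of Fcrls, Tyrobp, Trem2, Mertk, Ctss and P2ry13 in each library of Con, Model and MAN@SKI II. Points are libraries and the bar is the mean ± SD of 3 libraries. For the first 5 genes the Con libraries lie above all BTBR libraries, and for P2ry13 they lie below.

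The nucleotide and chemokine receptors split. P2ry13, a receptor for ADP (chromosome 3, 59115313 to 59118303), was at 8.52, 7.71 and 10.2 CPM in Con, at 11.6, 12.6 and 11.9 CPM in Model, with 11.3, 12.4 and 12.3 CPM in MAN@SKI II. All BTBR libraries lay above all Con libraries. Its log2 fold change in Model was 0.44 ± 0.12, at the border of the threshold (edgeR adjusted p = 0.0502), and it was called by DESeq2 (0.0419), limma-voom (0.0493) and without Con 3 (0.0294). P2ry12, its neighbour on the chromosome and the receptor that guides microglial processes to injured cells (chromosome 3, 59123693 to 59170292), varied within groups. It was at 25.5, 11.2 and 13.2 CPM in Con, at 18.0, 14.8 and 28.6 CPM in Model, with 29.6, 47.3 and 25.7 CPM in MAN@SKI II. Con and Model overlapped, and MAN@SKI II lay above Con by a narrow margin. Both genes lie within Med12l on the opposite strand, whose own counts were 648 to 1272 per library, so that without a stated strand setting some reads could be shared. The same holds for Gpr34 within Cask (752 to 1002 counts) and Vsir within Cdh23 (18 to 47). It also holds for Csf1r, which overlaps Hmgxb3 (763 to 1204).

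Cx3cr1, the receptor for CX3CL1 (chromosome 9, 119877749 to 119898945), had 1 library far from the rest. It was at 42.3, 39.5 and 47.6 CPM in Con, at 29.0, 28.6 and 6.01 CPM in Model, with 31.3, 35.2 and 29.3 CPM in MAN@SKI II. Model 3 held 108 counts where Model 1 and Model 2 held 484 and 494. In the same library Fcrls, Csf1r and Tmem119 were close to the other Model libraries, while P2ry12 was higher, at 28.6 CPM beside 18.0 and 14.8. All BTBR libraries lay below all Con libraries. With all libraries the log2 fold change of -1.03 ± 0.51 was not called (edgeR adjusted p = 0.341), and without Model 3 it was -0.58 ± 0.11 and called (edgeR adjusted p = 0.0166). Gm33858, which overlaps the gene on the opposite strand, had 41 counts over the 3 Con libraries and 0 over the 6 BTBR libraries. Gpr34, a receptor for lysophosphatidylserine, averaged 10.7 ± 1.46 CPM in Con libraries and 10.2 ± 1.14 CPM in Model.

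**Figure D4:**
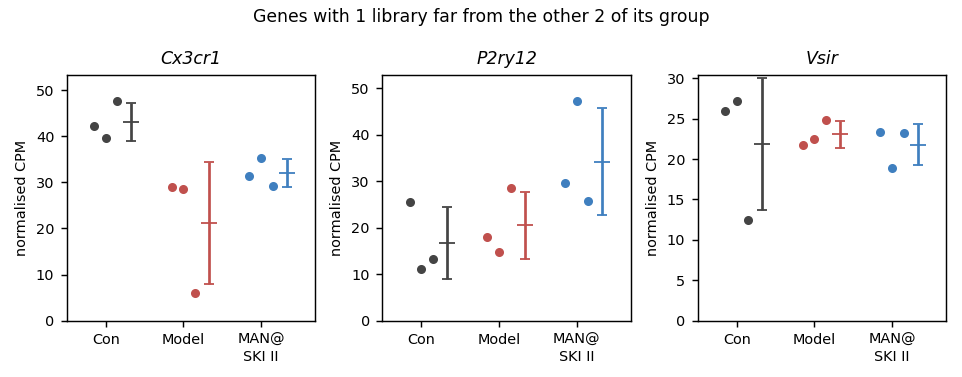
Normalised CPM (vertical axes, from 0) of Cx3cr1, P2ry12 and Vsir in each library of Con, Model and MAN@SKI II. Points are libraries and the bar is the mean ± SD of 3 libraries. Cx3cr1 in Model 3 is at 6.01 CPM beside 29.0 and 28.6, and Vsir in Con 3 is at 12.5 CPM beside 26.0 and 27.2.

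Genes for a checkpoint protein, sialic acid receptors and phosphatases gave no calls. Vsir, the checkpoint protein VISTA, was at 26.0, 27.2 and 12.5 CPM in Con and at 21.7, 22.5 and 24.9 CPM in Model. The low value of Con 3 alone sets the large spread of that group. Siglech, a sialic acid receptor of microglia, averaged 4.26 ± 0.329 CPM in Con libraries and 4.05 ± 0.633 CPM in Model. Cd33, a sialic acid receptor as well, was at 7.57 ± 0.843 and 7.05 ± 0.438 CPM, and Inpp5d, the lipid phosphatase SHIP1, at 11.4 ± 0.350 and 10.6 ± 1.11 CPM. Ptprc averaged 4.25 ± 0.434 CPM in Con libraries and 3.12 ± 0.761 CPM in Model, and 4 of the 5 genes of this group had negative log2 fold changes.

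Genes of pattern recognition and of adhesion were likewise not called. Cd14, a coreceptor for bacterial lipopolysaccharide, averaged 1.83 ± 0.355 CPM in Con libraries and 1.55 ± 0.362 CPM in Model, and Tlr2, a receptor for lipoproteins, at 1.05 ± 0.134 and 1.17 ± 0.194 CPM. Ly86, the partner of the receptor RP105, was at 6.85 ± 0.442 and 5.19 ± 1.36 CPM, with groups that did not overlap. Unc93b1, which carries endosomal Toll-like receptors, was at 12.1 ± 0.487 and 12.96 ± 0.884 CPM. Itgam, the integrin chain CD11b, averaged 16.7 ± 2.30 CPM in Con libraries and 14.55 ± 1.505 CPM in Model. It shares 3454 near-identical bases with the overlapping gene model Gm49368, which had 78 counts in Con and 0 in BTBR, and summed with it the values were 18.2 ± 3.37 and 14.55 ± 1.505 CPM. Itgb2, the integrin chain CD18, was at 5.24 ± 1.13 and 3.88 ± 0.620 CPM, and Selplg, the ligand of P-selectin, at 24.1 ± 1.37 and 24.4 ± 1.35 CPM. Cd53, a tetraspanin of leukocytes, was at 6.45 ± 0.943 and 5.40 ± 0.200 CPM, and Cd86, a co-stimulatory ligand for T cells, at 1.84 ± 0.449 and 1.21 ± 0.0438 CPM, both with groups that did not overlap.

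Transcription factors and further identity markers were not called either. Sall1, which keeps the microglial state, averaged 23.2 ± 1.87 CPM in Con libraries and 21.6 ± 0.890 CPM in Model, and Spi1 at 3.40 ± 0.227 and 3.10 ± 0.226 CPM. Ikzf1 was at 2.94 ± 0.774 and 1.94 ± 1.25 CPM and Runx1 at 0.941 ± 0.208 and 0.823 ± 0.326 CPM, and 0 of these 4 genes were called. Tmem119 was at 20.2 ± 3.10 and 20.4 ± 1.46 CPM, Slco2b1, an organic anion transporter, at 20.8 ± 0.983 and 21.2 ± 2.62 CPM, and Aif1, which encodes the marker protein IBA1, at 3.27 ± 0.811 and 2.99 ± 0.279 CPM. Hpgds, a prostaglandin D synthase, was at 7.19 ± 0.862 and 7.07 ± 1.40 CPM. Olfml3, a secreted protein of microglia, was at 19.05, 15.1 and 20.4 CPM in Con and at 12.4, 12.9 and 14.4 CPM in Model. Its groups did not overlap, and it was not called (-0.46 ± 0.13, edgeR adjusted p = 0.0620), though DESeq2 called it (adjusted p = 0.0386).

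When libraries were scaled to the geometric mean of the 40 genes, so that a shift common to them is removed, the median of all genes moved to 0.19 and 3 of the 40 were called in Model against Con, 7.5% against 19.2% of all genes (2 lower against 3.13%, and 1 higher against 16%). Fcrls (edgeR adjusted p = 0.00725) and Tyrobp (0.0487) were lower and P2ry13 (0.00489) higher on this scale, to which each itself contributes. Mertk (-0.31, adjusted p = 0.0862) and Ctss (-0.20, adjusted p = 0.192) were not. With mean choroid plexus expression added to the model as a covariate, 0 of the 40 genes and 109 of all genes were called. The log2 fold changes were -0.33 for Fcrls, -0.46 for Tyrobp, -0.88 for Mertk and -0.31 for Ctss. That covariate, as mean log2 CPM, was 3.30 to 4.71 in Con and 0.200 to 1.97 in the BTBR libraries. It followed strain, so this fit cannot separate choroid plexus from strain, and no conclusion is drawn from the lost calls.

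**Figure D5:**
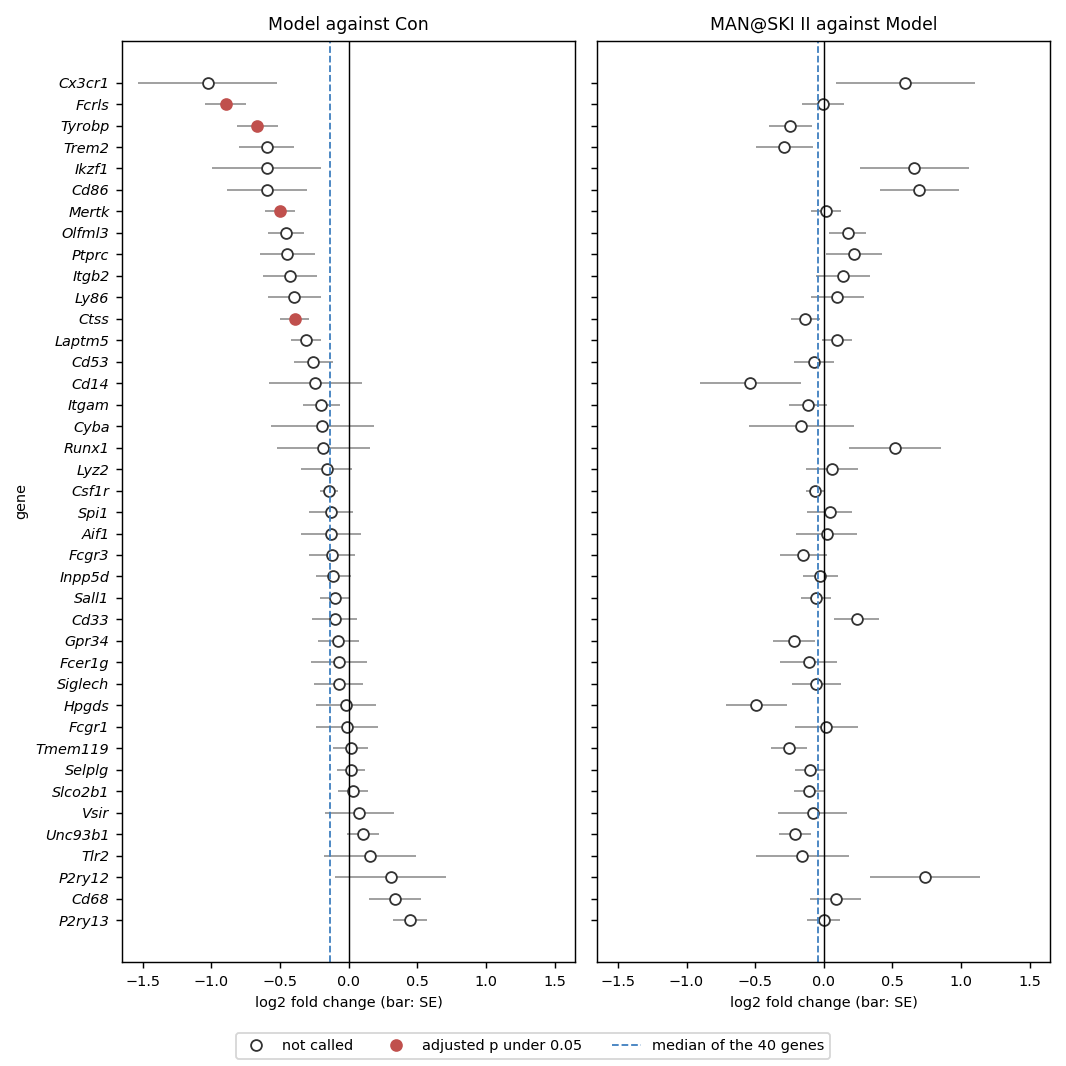
Log2 fold change of each of the 40 microglia genes (horizontal axes, bars are standard errors) in Model against Con (left) and MAN@SKI II against Model (right), with genes in the order of the left panel. Filled points have an edgeR adjusted p under 0.05, the solid line is 0 and the dashed line is the median of the 40 genes. The left panel leans to negative values with a median of -0.14, and the right panel, with a median of -0.04, holds no filled point.

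The sequences upstream of the genes that were called are shown because PU.1, the factor encoded by Spi1, binds promoters of many myeloid genes. Of the 5 genes called in at least 1 comparison, Fcrls, Trem2, Mertk and Ctss had an entry in RefSeq's promoter table, which is on GRCm38.p6, and Tyrobp had none. Each line gives the 250 bases before the annotated start on the gene's strand, from C57BL/6J, the reference strain, at chr3:87263525-87263774 (minus strand), chr17:48346151-48346400 (plus), chr2:128698665-128698914 (plus) and chr3:95526536-95526785 (plus). Capitals mark the letters GGAAGT, the core of the PU.1 consensus, on either strand.
Fcrls: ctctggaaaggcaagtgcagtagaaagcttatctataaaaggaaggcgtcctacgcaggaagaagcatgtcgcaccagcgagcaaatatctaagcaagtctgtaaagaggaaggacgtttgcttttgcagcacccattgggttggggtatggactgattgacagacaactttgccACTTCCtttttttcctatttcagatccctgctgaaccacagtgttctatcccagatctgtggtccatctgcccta
Trem2: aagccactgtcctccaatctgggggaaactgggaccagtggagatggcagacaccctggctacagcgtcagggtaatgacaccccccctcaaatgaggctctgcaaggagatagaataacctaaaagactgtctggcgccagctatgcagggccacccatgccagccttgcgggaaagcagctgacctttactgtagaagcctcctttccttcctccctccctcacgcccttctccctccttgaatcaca
Mertk: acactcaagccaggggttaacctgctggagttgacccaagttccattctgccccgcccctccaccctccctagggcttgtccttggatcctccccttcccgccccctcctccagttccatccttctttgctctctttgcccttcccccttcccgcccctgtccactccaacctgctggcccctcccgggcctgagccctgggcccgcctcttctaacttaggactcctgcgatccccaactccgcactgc
Ctss: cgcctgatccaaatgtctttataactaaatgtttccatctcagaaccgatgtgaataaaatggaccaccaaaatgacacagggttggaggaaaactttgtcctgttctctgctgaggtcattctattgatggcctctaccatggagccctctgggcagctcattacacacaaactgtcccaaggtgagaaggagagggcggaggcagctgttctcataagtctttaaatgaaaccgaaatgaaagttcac
The letters were present in Fcrls, as their reverse complement 75 bases before the start, and absent from these windows of Trem2, Mertk and Ctss. Of the 38 such windows of the 30 listed genes with an entry, 14 (36.8%) held GGAAGT, against 19.7% of 32851 windows of all genes. The longer GAGGAAGT, which contains it, was in 2 of the 38, upstream of Hpgds and Inpp5d (5.26% against 2.44%). GGAAGTG, which also contains it, was in 6 (15.8% against 8.55%), and AGAGGAA was in 5 (13.2% against 8.55%). Fcrls was among the genes with each, and its AGAGGAA is not marked above.

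What treatment changed within BTBR mice is read from MAN@SKI II against Model. No group received the nanomicelle without the inhibitor, so the inhibitor and its carrier cannot be told apart. None of the 40 microglia genes was called: edgeR, DESeq2 and limma-voom each called 0, and 2 had an unadjusted p under 0.05 by edgeR, 5% of the list against 4.82% of all genes. One of them was lower, 2.5% of the list against 2.31% of all genes. The groups did not overlap for 1 gene that was lower, Cd53 (2.5% against 4.8% of all genes), and for 2 that were higher, Cx3cr1 and Cd86 (5% against 4.63%). Over all 17550 genes edgeR called 0, which is 0% of them, and DESeq2 17. Of the 40, 23 had negative log2 fold changes (57.5% against 49.4% of all genes), with a median of -0.04. For the genes of the strain comparison the log2 fold change with treatment was -0.0045 ± 0.15 for Fcrls, 0.02 ± 0.11 for Mertk, -0.14 ± 0.11 for Ctss, -0.25 ± 0.16 for Tyrobp, -0.29 ± 0.21 for Trem2 and -0.0024 ± 0.12 for P2ry13 (SE, edgeR). Without MAN@SKI II 1 the value of Trem2 was -0.56 ± 0.19, and leaving out MAN@SKI II 2 gave -0.12 ± 0.19 for Trem2 and -0.03 for Ctss.

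The genes at an unadjusted p under 0.05 were Cd86 and Hpgds. Cd86 was at 1.26, 1.22 and 1.17 CPM in Model, with 1.61, 2.75 and 1.60 CPM in MAN@SKI II, where the highest value is that of MAN@SKI II 2. The groups did not overlap (0.70 ± 0.29, edgeR adjusted p = 0.914, and 0.40 ± 0.29 without MAN@SKI II 2), and the level in treated mice was near the 1.56, 2.35 and 1.60 CPM of Con. Hpgds was at 7.18, 5.62 and 8.41 CPM in Model, with 6.50, 4.94 and 3.57 CPM in MAN@SKI II, with overlapping groups (-0.49 ± 0.22, edgeR adjusted p = 0.914). Its value was -0.30 ± 0.21 when MAN@SKI II 3 was left out and -0.74 ± 0.23 when MAN@SKI II 1 was. The largest value was that of P2ry12 at 0.74 ± 0.40, and it was 0.43 ± 0.44 without MAN@SKI II 2. Cx3cr1 had a value of 0.59 ± 0.51, which was 0.15 ± 0.11 without Model 3. Ikzf1 held 1.02, 3.36 and 1.45 CPM in Model and 3.16, 2.33 and 3.70 CPM in MAN@SKI II, and Runx1 0.778, 0.521 and 1.17 CPM and 1.21, 1.13 and 1.21 CPM. Tmem119 held 18.7, 21.2 and 21.3 CPM in Model and 17.1, 15.3 and 18.96 CPM in MAN@SKI II, and Unc93b1 12.4, 12.5 and 13.98 CPM and 12.4, 9.75 and 11.4 CPM. The groups overlapped in all 4 genes. None was called: the log2 fold changes were 0.66 ± 0.40 for Ikzf1, 0.52 ± 0.33 for Runx1, -0.25 ± 0.13 for Tmem119 and -0.21 ± 0.12 for Unc93b1, with an edgeR adjusted p of 0.914 for each. Single libraries moved these values: Ikzf1 was 1.31 ± 0.33 without Model 2 and 0.36 ± 0.38 without Model 1, Runx1 0.28 without Model 2 and 0.86 without Model 3, and Unc93b1 -0.12 without MAN@SKI II 2. Other genes with 1 library apart in the treated group were Cyba, at 1.06 CPM in MAN@SKI II 2 beside 3.51 and 3.89, and Cd14, at 0.518 CPM in MAN@SKI II 1 beside 1.27 and 1.47.

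The comparison of MAN@SKI II with Con shares the Con libraries with that of Model with Con and the treated libraries with that of MAN@SKI II with Model. Of the 40 genes 5 were called, 12.5% against 8.13% of all genes. All 5 fell (4.7% of all genes) and 0 rose (3.43%). The log2 fold changes were -0.91 ± 0.15 for Tyrobp (edgeR adjusted p = 0.00362), -0.90 ± 0.15 for Fcrls (0.00347), -0.89 ± 0.20 for Trem2 (0.0213), -0.53 ± 0.10 for Ctss (0.00996) and -0.49 ± 0.11 for Mertk (0.0184). In the same order the values in Model against Con were -0.67, -0.90, -0.60, -0.39 and -0.50. The Trem2 call was lost without Con 1 (adjusted p = 0.0615), Con 2 (0.0846) or MAN@SKI II 3 (0.0576) and with the 6 compared libraries alone (0.0510), and the Mertk call without Con 2 (0.0829) or MAN@SKI II 1 (0.0691). Tyrobp, Fcrls and Ctss were called without each library in turn. P2ry13 was 0.44 ± 0.12 higher (edgeR adjusted p = 0.0503). P2ry12 was 1.04 ± 0.40 higher and not called (edgeR adjusted p = 0.190). Cx3cr1 took -0.43 ± 0.50 (edgeR adjusted p = 0.680), and without Model 3, which is no part of this contrast but of the shared estimate of spread, it was called (-0.44 ± 0.10, adjusted p = 0.0290). The median of the 40 genes was -0.20, and 32 were negative, against 50.2% of all genes. The groups did not overlap for 10 genes that were lower, 25% of the list against 14.4% of all genes, and for 3 that were higher, P2ry12, P2ry13 and Runx1, 7.5% against 13% of all genes. At an unadjusted p under 0.05 there were 12 of the 40 (30% against 21.6%).

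Of 42 other genes enriched in microglia, 40 were tested, and in Model against Con 3 fell and 0 rose (4.52% and 3.11% of all genes), with a median of -0.08. Of these other genes 25 had negative log2 fold changes, where 31 of the 40 identity genes did. In MAN@SKI II against Con 27 were negative with a median of -0.07, where the identity genes had 32 and -0.20. Complement C1q, which tags synapses for removal by microglia, gave the clearest values, and its subunits split. C1qb was at 35.2, 35.7 and 32.7 CPM in Con, at 18.9, 18.0 and 20.2 CPM in Model, with 15.9, 13.6 and 16.7 CPM in MAN@SKI II (Model against Con -0.86 ± 0.10, edgeR adjusted p = 0.000308). C1qc averaged 31.0 ± 1.13 CPM in Con libraries and 18.5 ± 2.54 CPM in Model (-0.75 ± 0.13, edgeR adjusted p = 0.00393). C1qa, the gene of the remaining subunit, was at 31.2 ± 0.601 CPM in Con, 32.8 ± 2.75 CPM in Model and 29.7 ± 4.35 CPM in MAN@SKI II, with overlapping groups. In MAN@SKI II against Con 2 of these 40 genes fell, C1qb and C1qc, a share near the 4.7% of all genes, and in MAN@SKI II against Model edgeR called 0, with 2 at an unadjusted p under 0.05.

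Of the genes that rise in disease-associated microglia 17 were tested. In Model, where 3.11% of all genes were called higher and 4.52% lower, 1 of the 17 rose, Lpl, lipoprotein lipase, from 50.9 ± 6.79 to 112 ± 7.76 CPM, and 1 fell, Gpnmb, a lysosomal glycoprotein, from 5.60 ± 0.502 to 2.96 ± 0.453 CPM. Lpl is also made by other brain cells. In MAN@SKI II against Con, Lpl rose (1.16 ± 0.12) and Cd9, a tetraspanin, fell (-0.61 ± 0.15, edgeR adjusted p = 0.0307). With treatment edgeR called 0 of the 17, and Ctsl, cathepsin L, had the smallest p (-0.36 ± 0.09, edgeR adjusted p = 0.914).

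Among genes for ligands and signals that act on microglia, 11 were tested. Cd47, which restrains uptake by phagocytes, rose from 145.5 ± 4.62 CPM in Con to 198 ± 7.34 CPM in Model (0.45 ± 0.08, edgeR adjusted p = 0.00424) and was at 209.9 ± 22.2 CPM in MAN@SKI II. Tgfb2, a TGF-beta ligand, was called in MAN@SKI II against Con (0.37 ± 0.10, edgeR adjusted p = 0.0443). Il34, a ligand of CSF1R, averaged 39.9 ± 3.43 CPM in Model libraries and 31.9 ± 3.08 CPM in MAN@SKI II and was not called (-0.32 ± 0.10, edgeR adjusted p = 0.914). Cx3cl1, the ligand of CX3CR1, varied more within groups than between them, at 50.1, 598 and 93.0 CPM in Con, at 183, 670.1 and 223 CPM in Model, with 206, 103 and 195 CPM in MAN@SKI II.

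Of 18 inflammatory mediators only 6 passed the filter on low counts, and edgeR called 0 of them in each of the 3 comparisons, with 1, 2 and 1 at an unadjusted p under 0.05. Tnf, the cytokine, was at 0 in all Con libraries and at most at 0.230 CPM elsewhere, and Il1b reached 0.460 CPM at most. Markers of other immune cells were scarce. Of 14 genes of border-associated macrophages 9 were tested and edgeR called 0, with 0, 0 and 1 at an unadjusted p under 0.05, and their summed level was 35.1 to 45.8 CPM in Con, 31.5 to 39.9 CPM in Model and 32.7 to 38.0 CPM in MAN@SKI II. In Model against Con 7 of those 9 had negative log2 fold changes, against 49.9% of all genes, with a median of -0.29. In MAN@SKI II against Model 7 were negative (median -0.29), and in MAN@SKI II against Con 8 (median -0.23). The shares of all genes were 49.4% and 50.2%. Cbr2 had the smallest p in Model against Con, at 0.746 ± 0.276 CPM in Con, and at 0.460 ± 0.144 CPM in Model. Of 14 monocyte and neutrophil genes 2 were tested, Fn1, which other cells make in quantity, and Lcn2, and of 14 lymphocyte genes 2, with 0 called by edgeR in either list. At an unadjusted p under 0.05 there were 2, 0 and 1 in the first and 0 in the second. Of the 14 monocyte and neutrophil genes 8 had no counts over the 3 Con libraries, 0 over the Model libraries and 2 over the MAN@SKI II libraries. Lcn2, a neutrophil granule protein that other cells also make, was at 0, 0 and 0.160 CPM in Con, at 1.56, 0.463 and 2.896 CPM in Model, with 0.863, 0.848 and 0 CPM in MAN@SKI II, and was not called in Model (edgeR adjusted p = 0.0617). S100a8 and S100a9, neutrophil calcium-binding proteins, were at 0 in Con and at most at 0.501 CPM in Model and 0.920 CPM in MAN@SKI II. The part of such cells in the values of the microglia genes was not tested. Endothelial and mural genes, of which 14 were tested, held 1 fall in Model, Rgs5, a pericyte gene, from 102 ± 4.79 to 66.8 ± 5.38 CPM, and neuronal genes 2, Nefl and Nefm, subunits of the neurofilament. Of the 15 oligodendrocyte genes 9 fell in Model, with a median of -0.51, and of the 15 choroid plexus genes 8, with a median of -3.12. The part of these other cell types in the values of the microglia genes was not tested. The choroid plexus covariate given above followed strain and cannot show it.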

How the data were processed

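Poly(A) RNA from the hippocampus of 9 mice was sequenced as paired reads. Read counts per gene are the authors' own and not normalised, per the file headers, and the FPKM values are the authors' deposited values per gene length and library total. In 14190 genes with at least 20 counts in every library, 100% of ratios of FPKM to count matched a fixed length per gene within 0.1%. HISAT2 2.0.4, StringTie 1.3.3b, edgeR 3.2.0, Bowtie2 and the build GRCm39 are named without roles, per the submitters' processing notes. Neither strand setting nor annotation release was found in the labels. Columns were mapped by library name, and replicate numbers follow the titles, which call them biological.

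Counts were fitted with edgeR 4.0.16 in R 4.3.3: filterByExpr (17550 genes kept), TMM factors (0.960 to 1.01), a robust quasi-likelihood model over all 9 libraries with group as the only term (common dispersion 0.0196), and two-sided tests, with calls at 0.05 after Benjamini-Hochberg adjustment over every gene tested. Every adjusted p comes from edgeR unless DESeq2 1.42.0 or limma 3.58.1 (voom) is named. Each standard error was derived from its F statistic. Levels are normalised CPM as mean ± SD of 3 libraries, and log2 CPM uses a prior count of 2. Floors cover counting error only. Rows without a symbol (523) held 0.0767% to 0.0992% of counts. The procedure was tested on simulated counts.

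The 40 genes, the lists and the tests were chosen with earlier results of these data known, so no p is adjusted over a list alone. All 40 genes are named. Log2 fold changes are given for genes called in any comparison, the 5 smallest p and the 5 farthest from the median of the 40 in each comparison, and Olfml3, Csf1r and Cx3cr1, added after their values were seen. From each other list up to 2 called genes per direction, or else the smallest p, were taken; C1qa, Cx3cl1, Tnf, Il1b, S100a8 and S100a9 were also added after their values were seen. Transcripts of the 40 genes were aligned with BLAST 2.17.0 to those of GENCODE M21, matched by gene ID. With identity of 97%, 150 aligned bases and 50% of the shorter transcript as minima, 2 genes had a near-identical partner, Itgam (Gm49368) and Slco2b1 (Gm15635, 8 counts in all). Of the 40 genes, 13 overlap another gene with counts. Each promoter window is the first 250 bases of its entry. In 33 of the 38 whole entries the last 30 bases were found in a transcript of the gene, as their orientation requires.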

Additional observations from a re-analysis of the deposited data

How the results depend on the processing

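Alternatives were RLE factors, no factors, no filter, at least 1 CPM in 3 libraries, DESeq2, limma-voom, the 6 compared libraries alone, the choroid plexus mean as a covariate, scaling to the 40 genes, the replicate number as a block, and leaving out each library in turn. The count of genes called in Model against Con was 109 with the choroid plexus covariate and 2073 with the 6 compared libraries, and 830 to 2226 with 1 library left out. For the 40 microglia genes it was 0, 8, and 2 to 8 (2 without Con 1, Model 1 or Model 2, and 8 without MAN@SKI II 2). In MAN@SKI II against Model the count of all genes was 1 with no factors, no filter, the 6 compared libraries or the replicate block, 17 by DESeq2 and 0 to 9 with 1 library left out. In MAN@SKI II against Con it was 140 with the covariate and 857 to 1633 with 1 library left out, and for the microglia genes 0 with the covariate and 3 (without Con 2) to 6 with 1 left out.

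The median of the 40 genes was -0.18 to -0.13 in Model against Con, -0.04 to -0.02 in MAN@SKI II against Model and -0.22 to -0.15 in MAN@SKI II against Con with 1 library left out, and -0.24 in the last over the 25 genes that averaged 5 CPM or more. The mean log2 CPM of MAN@SKI II was 2.89 with no factors. The sign turned for Fcrls in MAN@SKI II against Model without Model 2 (0.11), MAN@SKI II 1 (0.13) and MAN@SKI II 2 (0.0048), within a range of -0.17 to 0.13 with 1 library left out, for Mertk there with no factors (-0.0068), scaled to the 40 genes (-0.0050), without Model 2 (-0.088) and MAN@SKI II 2 (-0.046), within -0.088 to 0.094, and for Csf1r in Model against Con scaled to the 40 genes (0.050). The causes were not tested. These turns cover only the genes and comparisons picked by the rule given above. Of the other values in that pick, 567 kept direction and side of the threshold, 31 lost a call and 21 gained one. Signs also turned outside it. In Model against Con, Vsir went from 0.08 to -0.21 without Con 3, and P2ry12 from 0.30 to -0.01 without Model 3.

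Libraries of the same replicate number did not deviate together (correlations -0.0639 to 0.0525). Libraries of different numbers gave -0.0638 to 0.0870. These numbers follow the titles and differ from those in the library names. The values gave no sign of pairing by replicate number but cannot show that no pairing exists. With the replicate block 1044, 1 and 1134 genes were called in the 3 comparisons, and 4, 0 and 5 of the 40. Depth limits the scarcest genes, such as Runx1, with 9 to 21 counts per library.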
